A study of Mus musculus with 16 samples.

Results

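Cycloheximide (CHX), an inhibitor of translation elongation, was added without induction of Notch1 to mesodermal progenitors derived from mouse embryonic stem cells (ESC), and its effect on RNA levels is described here across all genes of the array. The arrays were chosen by their sample titles, and of the 16 arrays of the series these are 4, namely 2 arrays of CHX-treated cells and 2 arrays of untreated cells. All 4 came from EB5 NERT cells, a mouse ESC line that carries murine Notch1IC fused to a hormone-binding domain, which 4-hydroxy-tamoxifen (OHT) activates. The cells had been differentiated on collagen IV with fetal calf serum, no OHT was added, and CHX was given at 50 µg/ml for 4 h. The paper's figure legend gives 4 d of differentiation, and its methods give a range that runs a day longer. In the same layout 2 arrays of NERT mesodermal cells with CHX and OHT and 2 arrays with OHT alone (1 µM, 4 h) gave a second measure of the CHX effect. The untreated cells carry the NERT construct as well, and the series holds no CHX-treated array of the EB5 control line. Whether the CHX effect depends on the construct can therefore not be told. Whether untreated cells received the CHX solvent is not given in the sources used here. Whether the 2 arrays of a group came from separate cultures is not given either, so that p-values measure the spread between arrays, which may be technical.

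CHX is widely used to ask which transcripts respond to a signal when no new protein can be made. It is also known for superinduction, the rise of short-lived transcripts of immediate early genes when the labile proteins that repress their transcription or degrade their mRNA are no longer replaced. Because nonsense-mediated decay requires translation, transcripts that normally carry a premature stop codon, among them many spliced snoRNA host RNAs and poison-exon isoforms of splicing factors, are also known to accumulate under CHX. Transcripts whose synthesis needs a labile activator are known to fall, as far as their own stability allows within the time of treatment.

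Values are model-based expression intensities on a linear scale, and each gene is represented by the probe set with its highest mean. Changes are log2 ratios of CHX-treated over untreated cells after 25 was added to each value, so that they understate the change of weakly expressed genes, and a fold change is a ratio of mean intensities, given as a lower bound against 25 where the smaller mean is below 25. The 4 arrays had medians of 46.9 and 45.1 with CHX, against 43.6 and 44.0 without it. Between the replicate arrays of one group the root mean square log2 distance over 23971 probe sets was 0.28 with CHX and 0.24 without it, whereas across the groups it was 0.64 to 0.73. The labelled cell type was checked on its markers. Of 8 markers chosen for mesodermal progenitors, 7 were measured. T (Brachyury), which the paper used to mark mesoderm, was not matched by its symbol and is missing from the check and the sums. Of the 7 measured, 6 stood at 50 or more on all 4 arrays. The summed intensity of the 7 was 1341 and 976 in CHX-treated cells, against 4210 and 3630 in untreated cells. The 6 ESC markers stood at 50 or more on all 4 arrays as well (summed 9832 and 11515 with CHX, 8106 and 8561 without it), so the cultures also held ESC transcripts and not mesodermal transcripts alone. In RNA of whole cultures fewer cells of a type and less RNA per cell cannot be told apart. Endoderm markers summed to 458 and 377 with CHX and 310 and 256 without it, and Afp and Ttr were below 20 on all 4 arrays. Blood and endothelial markers summed to 187 and 235 with CHX, against 183 and 171 without it, and neuroectoderm markers to 792 and 759 with CHX, against 386 and 284 without it.

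Rises were more frequent and larger than falls. In the limma fit over the 8 NERT mesoderm arrays, 12188 genes were tested at an adjusted p threshold of 0.05, and 2961 of them (24.3%) were higher and 1156 (9.48%) lower with CHX. These shares are the background against which each gene list below is read. Each list is counted over its tested genes only, those with a group mean of 50 or more. A gene lower than that in untreated cells was tested only if another group reached 50. For such genes the filter favoured rises. The lists were chosen with earlier results of these data known, so their counts and medians are a description and no test of a class. Of the genes called, 1180 rose and 315 fell by at least 1 on the log2 scale, 138 rose and 16 fell by at least 2, and 28 rose and 1 fell by at least 3. The middle 90% of all genes tested, from the 5th to the 95th percentile, spanned -0.79 to 1.32 with a median of 0.11. The study's own criteria, 2-fold and more than 50 apart, gave 2381 rises and 991 falls among probe sets. The same criteria separated 191 probe sets between the replicate CHX arrays and 160 between the replicate untreated arrays. The excess of rises depended on the scale. Over probe sets 64.3% of the calls were rises, against 50.3% after quantile normalization and 49.2% after the array medians were aligned, which lowered all log2 changes by 0.12. Higher probe sets numbered 4304 and lower ones 4251 after quantile normalization, and 4169 and 4302 with aligned medians. List counts after rescaling are to be read against these totals. The full fit called 5059 probe sets higher and 2812 lower. With any 1 of the 4 arrays of the comparison left out, fewer probe sets were called in either direction. Such a fit leaves 1 array in a group, so a lower count does not show that a particular array decided the result. List counts with an array left out are to be read with that in mind.

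Probe sets with the strongest signals changed least. Of 207 genes with a mean of 5000 or more in untreated cells, 3 rose and 18 fell, and none of these changed by 1 or more on the log2 scale. Of 2078 genes between 1000 and 5000, 349 rose (62 by at least 1) and 292 fell (92 by at least 1). Of 4884 genes between 200 and 1000, 1242 rose and 597 fell. Genes below 50 in untreated cells were tested only if another group of the fit reached 50, and their rises (456 of 1031) are to be read with that in mind. Called changes of 2 or more in either direction all lay at or below the untreated mean of Fst, 1964, as the plot of change against level shows.

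**Figure D1:**
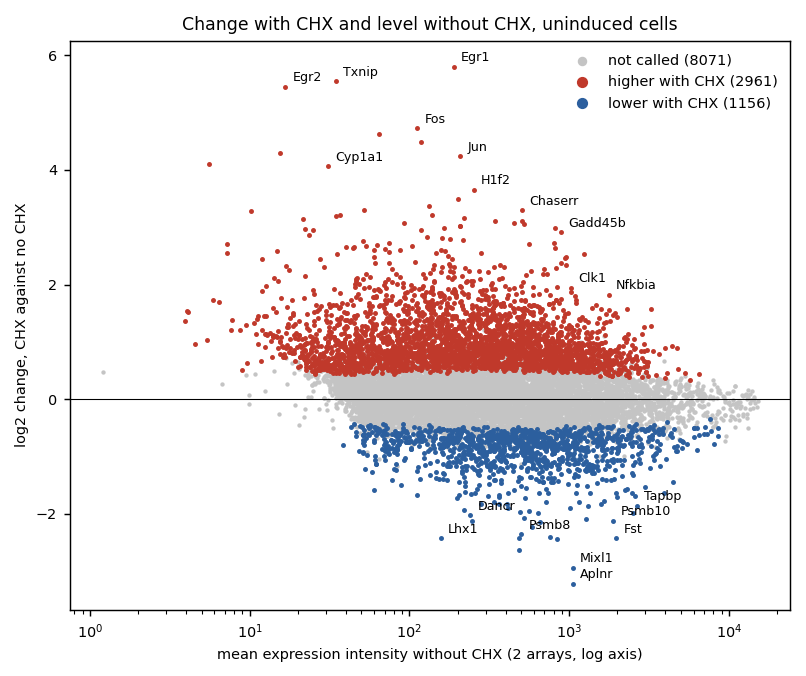
Log2 change with CHX (vertical axis) against the mean intensity of untreated cells (horizontal log axis) for each of the 12188 genes tested, with the 2961 higher genes in red, the 1156 lower genes in blue and the 8071 genes not called in grey. The upper arm reaches 5.80 at Egr1 and the lower arm -3.22 at Aplnr, and genes above 5000 lie close to 0.

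The EGR family of zinc finger factors, textbook immediate early genes driven by serum response factor, rose as a group. Egr2, known from hindbrain and Schwann cell development, stood at 1748 and 1849 with CHX, against 13.9 and 19.6 without it (at least 71.9-fold, log2 change 5.45 ± 0.18, adjusted p = 1.2e-07). Egr3 stood at 827 and 715 with CHX and 18.7 and 12.5 without it (log2 change 4.29 ± 0.24, adjusted p = 3.4e-06), and Egr4 at 570.3 and 442 with CHX and 7.49 and 3.6 without it (log2 change 4.11 ± 0.27, adjusted p = 9.3e-06). Every CHX value of these genes exceeded every value of the other 10 arrays without CHX as well, which reached 61.6 for Egr2, 113 for Egr3 and 28.1 for Egr4. Egr1 had the largest rise of all genes on the log2(value + 25) scale, though not by the ratio of means, at 11723 and 12159 with CHX, against 195 and 184 without it (63.0-fold, log2 change 5.80 ± 0.14, adjusted p = 1.3e-08). The corepressors Nab1 and Nab2, which bind EGR proteins and limit them, did not pass the test (Nab1 805 and 612 with CHX and 677 and 693 without it, Nab2 182 and 176 with CHX and 243 and 305 without it). Thus 4 of 6 genes of this list rose and none fell, with a list median of 4.20 against 0.11 for all genes.

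Of 13 AP-1 subunits on the array, the bZIP proteins that pair into Jun and Fos dimers, 3 were too low to be tested. Among the 10 tested, 8 rose and none fell, with a median change of 2.14. Fos stood at 3656 and 3531 with CHX, against 102 and 123 without it (log2 change 4.72 ± 0.20, adjusted p = 7.5e-07). Jun stood at 4349 and 4412 with CHX, against 199 and 218 without it (log2 change 4.24 ± 0.17, adjusted p = 5.6e-07). Atf3, a stress-induced repressor of the same protein class, stood at 2929 and 3463 with CHX, against 114 and 124 without it (log2 change 4.48 ± 0.18, adjusted p = 5.6e-07). These subunits had both CHX arrays above both untreated arrays, as the rule that named them required, and the remaining ones moved less. Fosl1 stood at 246 and 187 with CHX, against 11.9 and 17.8 without it (log2 change 2.59 ± 0.21, adjusted p = 2.8e-05). Jund, the subunit that most cells express constitutively, stood at 4917 and 4621 with CHX, against 1732 and 1449 without it (log2 change 1.57 ± 0.15, adjusted p = 5.7e-05). Fosl2 changed by 2.44 and Junb by 1.84. A further probe set of Fosl2 was not called (0.41). Of the small Maf partners, Maff stood at 772 and 511 with CHX, against 365 and 278 without it (log2 change 0.93 ± 0.22, adjusted p = 0.01, a call lost without CHX replicate 1 or untreated replicate 2), and Mafk (0.39) and Mafg (-0.47) were not called. AP-1 counts with any 1 of the 4 arrays left out were 7 or 8.

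**Figure D2:**
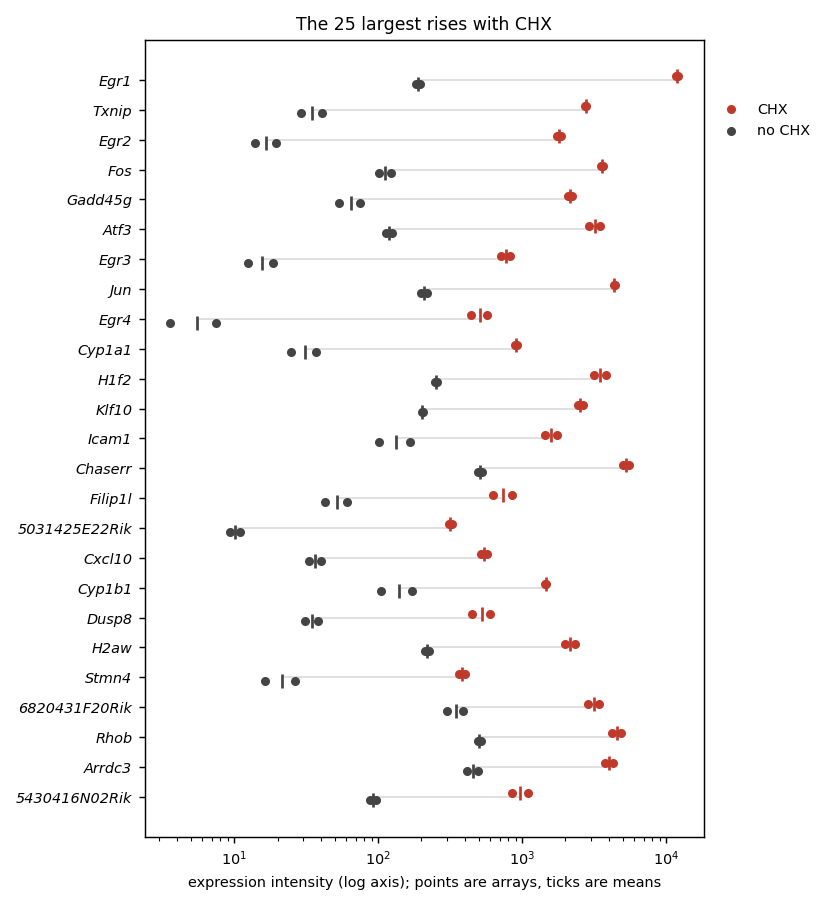
Expression intensity on a log axis for the 25 genes that rose most, from the largest change at the top. Red points are the 2 CHX arrays and dark points the 2 untreated arrays, with a tick at each mean. Only genes with both CHX arrays above both untreated arrays were eligible, so the absence of overlap follows from the choice. CHX means run from 317 to 11941, against 5.55 to 508 in untreated cells.

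Other immediate early genes followed with smaller changes, 16 of 22 higher and 1 lower (13 or 14 higher with any 1 of the 4 arrays left out). Ier2, a short-lived nuclear protein of this class, stood at 2648 and 5500.0 with CHX, against 573 and 549 without it (log2 change 2.71 ± 0.35, adjusted p = 0.00031), and the replicate CHX arrays lay apart. Rhob, a labile small GTPase, stood at 4183 and 4880.4 with CHX, against 490.3 and 519 without it (log2 change 3.10 ± 0.18, adjusted p = 4.4e-06). Ccn1 and Ccn2, secreted matricellular proteins known as YAP and serum targets, stood at 4475 and 6150.1 with CHX and 988 and 884 without it, and at 6684 and 6912 with CHX and 2582 and 2012 without it, changes of 2.46 and 1.57. The polo-like kinases Plk2 (1.76) and Plk3 (1.82), the regulator Csrnp1 (1.93), Ier5 (2.24) and Cebpd (1.92) rose as well. Another probe set of Csrnp1 was not called (0.30). Members of the same class that are induced in other cell types did not all take part. The orphan nuclear receptor Nr4a2 stood at 80.5 and 76.7 with CHX, against 82.2 and 73.1 without it, Nr4a3 changed by 0.61 and was not called, and the apoptosis regulator Ier3 was lower (648 and 742 with CHX, against 1393 and 952 without it, log2 change -0.71 ± 0.22, adjusted p = 0.029), a call that was lost without CHX replicate 1 or 2 or untreated replicate 1.

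Serum response factor itself (Srf), which binds the CArG box of many immediate early promoters, stood at 1313 and 1317 with CHX, against 613 and 534 without it (log2 change 1.17 ± 0.26, adjusted p = 0.0066), and another probe set of Srf was not called (-0.25). A set of 6 motifs was searched on both strands in the RefSeq windows of GRCm38.p6 that run from 250 bases before to 50 bases after each annotated start: the CArG box, the EGR site GCGTGGGCG, the AP-1 site TGANTCA, the cAMP response element TGACGTCA, the NF-kB site and the interferon response core GAAANNGAAA. The CArG box was in 535 of all 32851 windows (1.63%), and in 1 of 19 windows of the 25 largest falls (5.26%), belonging to Cited1. It was in 6 of 27 windows of the 20 genes with a window among the 25 largest rises, belonging to Egr2, Filip1l and Cyp1a1, and in 5 of 43 windows of the AP-1, EGR and other immediate early genes, belonging to Egr2 and Srf. These were 28 of the 37 genes tested on these lists, and Egr1, Egr3, Fosl1 and Ier2 were among those not searched. The 5 windows of Egr2 overlap. The Egr2 and Srf stretches are shown because both genes rose and both hold the box, in capitals, in chr10:67537474-67537523 (plus strand) and chr17:46556195-46556264 (minus strand, with the box at 2 places, -82 and -62 from the start).
Egr2: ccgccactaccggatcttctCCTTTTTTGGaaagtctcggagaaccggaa
Srf: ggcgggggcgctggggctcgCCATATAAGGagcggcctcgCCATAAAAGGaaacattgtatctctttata
A match describes these letters only, and binding was not measured here.

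Genes that limit growth factor signals rose beside the immediate early genes. Of 17 MAP kinase phosphatases and Sprouty or Spred factors, 10 rose and 2 fell (median change 0.87). Dusp8, a phosphatase of the stress kinases, stood at 447 and 599.8 with CHX, against 30.9 and 38.5 without it (log2 change 3.19 ± 0.39, adjusted p = 0.00023), Dusp16 changed by 2.35, and Dusp1, known as an immediate early gene, stood at 4619 and 4941 with CHX, against 1658 and 1719 without it (log2 change 1.49 ± 0.14, adjusted p = 6.3e-05). Errfi1, a labile inhibitor of the EGF receptor, stood at 3978 and 4277 with CHX, against 712 and 949.7 without it (log2 change 2.29 ± 0.18, adjusted p = 2.7e-05). The genes of the list parted by family member rather than moving as one. Spry2, an antagonist of FGF signalling, was higher (2846 and 2818 with CHX, against 1609 and 1508 without it, log2 change 0.85 ± 0.17, adjusted p = 0.0038), Spry1 was lower (303 and 317 with CHX, against 609 and 624 without it, log2 change -0.94 ± 0.18, adjusted p = 0.0027), and Spry4 was not called (-0.24). Dusp6 changed by 0.87. Dusp4 was lower (440.2 and 676 with CHX, against 1122 and 1009 without it), a call lost without CHX replicate 1 or either untreated array.

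Factors that themselves shorten mRNA half-lives were higher too. Of 9 genes of the TTP, Regnase and BTG or TOB families, 7 rose and none fell (5 or 6 with any 1 of the 4 arrays left out, and 5 after either rescaling). Btg2, an antiproliferative partner of the CCR4-NOT deadenylase, stood at 1302 and 2090.3 with CHX, against 362 and 366 without it (log2 change 2.11 ± 0.23, adjusted p = 0.00013). Zfp36, which encodes TTP and binds AU-rich elements, stood at 657 and 699 with CHX, against 220.1 and 224 without it (log2 change 1.51 ± 0.18, adjusted p = 0.00021). Zfp36l1 stood at 1788 and 1564 with CHX, against 791 and 777 without it (log2 change 1.07 ± 0.18, adjusted p = 0.0015). Zfp36l2 was the one member with a negative value and was not called (-0.43).

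Genes of the NF-kB pathway, whose inhibitor IkBa is a labile protein, rose in 13 of 19 cases and fell in none, with a median of 1.25. Nfkbia, which encodes IkBa and is itself an NF-kB target, stood at 6404 and 6226 with CHX, against 1653 and 1880.5 without it (log2 change 1.83 ± 0.14, adjusted p = 2.5e-05). Tnfaip3, the deubiquitinase A20 of the negative feedback loop, stood at 1297 and 1249 with CHX, against 162 and 159 without it (log2 change 2.81 ± 0.17, adjusted p = 6.6e-06). Nfkbie, another inhibitor, stood at 600.4 and 520.4 with CHX, against 65.2 and 83.0 without it (log2 change 2.56 ± 0.26, adjusted p = 8.5e-05). The rises included inhibitors, subunits and secreted targets. The adhesion receptor Icam1 stood at 1735 and 1441 with CHX, against 102 and 165 without it (log2 change 3.37 ± 0.37, adjusted p = 0.00013), and the chemokine Cxcl10 at 572 and 519 with CHX, against 40.0 and 33.2 without it (log2 change 3.21 ± 0.20, adjusted p = 6.7e-06). Cxcl1 stood at 441 and 397 with CHX, against 54.1 and 67.8 without it (log2 change 2.37 ± 0.18, adjusted p = 2.2e-05). Among the subunits, Rel stood at 122 and 101 with CHX, against 13.5 and 10.3 without it and Rela at 1827 and 1746 with CHX, against 691 and 634 without it, changes of 1.89 and 1.40. The inhibitors Nfkbib (-0.34), Nfkbid (0.08) and Nfkbiz (-0.27) and the subunit Nfkb2 (0.05) were not called. With any 1 of the 4 arrays left out, 11 or 12 genes of the list were higher.

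The NF-kB site was in 12 of 21 RefSeq windows (57.1%) of 16 genes of this list, against 2779 of all 32851 windows (8.46%). It was also in 7 of 27 windows of the 25 largest rises (25.9%) and 3 of 19 windows of the 25 largest falls (15.8%). The NF-kB list was drawn up from known targets, so its share is a description of the list and no independent evidence. The stretches upstream of 3 of the genes that rose are shown with the site in capitals. They lie at chr12:55492648-55492696 for Nfkbia, chr5:92348963-92349122 for Cxcl10 and chr10:19015411-19015555 for Tnfaip3, all on the minus strand. In Cxcl10 the capitals near the left end are the interferon response core, at -213, which was in 1131 of all windows (3.44%). The pair of overlapping NF-kB matches there at -104 and -103 forms 1 run of capitals.
Nfkbia: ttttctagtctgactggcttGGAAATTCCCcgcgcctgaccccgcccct
Cxcl10: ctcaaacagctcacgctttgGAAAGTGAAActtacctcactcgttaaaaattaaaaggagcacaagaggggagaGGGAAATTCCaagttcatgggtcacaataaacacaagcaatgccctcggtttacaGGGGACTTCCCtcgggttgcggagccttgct
Tnfaip3: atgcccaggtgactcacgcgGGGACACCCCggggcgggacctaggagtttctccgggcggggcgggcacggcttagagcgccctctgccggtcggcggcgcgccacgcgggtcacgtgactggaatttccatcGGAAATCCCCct

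Txnip, an alpha-arrestin that binds thioredoxin and is known for a short mRNA half-life, was the second largest rise on the log2(value + 25) scale, and larger than Egr1 by the ratio of means, at 2755 and 2761 with CHX, against 29.0 and 40.6 without it (79.3-fold, log2 change 5.55 ± 0.22, adjusted p = 5.6e-07). Its level in the other 10 arrays without CHX ranged from 29.4 to 1964, so that the gene varied among untreated populations as well. The related Arrdc3, which acts in receptor trafficking, stood at 3779.5 and 4261 with CHX, against 496 and 412 without it (log2 change 3.08 ± 0.17, adjusted p = 3.4e-06), whereas Arrdc1 (-0.17) and Arrdc2 (0.62) were not called. The 3 stress sensors Gadd45a, Gadd45b and Gadd45g all rose. Gadd45g stood at 2097 and 2232 with CHX, against 53.4 and 75.3 without it (33.6-fold, log2 change 4.63 ± 0.27, adjusted p = 5.9e-06). Gadd45b stood at 7373 and 6416 with CHX, against 897 and 889 without it (log2 change 2.91 ± 0.14, adjusted p = 1.5e-06). Gadd45a stood at 822 and 1316 with CHX, against 306 and 321 without it (log2 change 1.66 ± 0.25, adjusted p = 0.00088). The 2 CHX arrays lay apart for Gadd45a, yet both were above both untreated arrays. Gadd45gip1, which shares the name because its product binds Gadd45 proteins and is a mitochondrial ribosomal protein, was lower (-0.83), a call lost without CHX replicate 1 or untreated replicate 2.

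The stress response lists stood near the shares of all genes (24.3% higher and 9.48% lower), so that their counts set none of them apart. Of 19 genes of the integrated stress response, whose translated activator is ATF4, 3 rose and 2 fell (1 fell with any 1 of the 4 arrays left out). Atf4 mRNA stood at 5582 and 5281 with CHX, against 1042 and 877 without it (log2 change 2.47 ± 0.15, adjusted p = 5.9e-06). Ddit3, which encodes CHOP, stood at 1644 and 1334 with CHX, against 171 and 157 without it (log2 change 2.99 ± 0.20, adjusted p = 9.3e-06). Ppp1r15a, a regulatory subunit for eIF2a phosphatase, stood at 1073 and 1342 with CHX, against 355 and 343 without it (log2 change 1.71 ± 0.23, adjusted p = 0.0004). Ddit3 and Ppp1r15a are known targets of ATF4 protein, and other known targets were not called or were lower. Asparagine synthetase (Asns) stood at 3458 and 3592 with CHX, against 3397 and 3839 without it (log2 change -0.03 ± 0.15), Psat1 changed by -0.07, Chac1 by -0.30 and Trib3 by 0.83, and none of these was called. Vldlr was lower (296 and 246 with CHX, against 971 and 616 without it, log2 change -1.44 ± 0.25, adjusted p = 0.0017). In the unfolded protein response 4 of 16 genes rose and 2 fell, and 2 rose with any 1 of the 4 arrays left out. Among them were Herpud1, a short-lived membrane protein, at 219 and 251 with CHX, against 101 and 93.1 without it (log2 change 1.09 ± 0.20, adjusted p = 0.0025). Edem1, which sorts misfolded glycoproteins, stood at 453 and 372 with CHX, against 985 and 814 without it (log2 change -1.08 ± 0.21, adjusted p = 0.0032). Of 12 heat shock genes 3 rose (2 without CHX replicate 1 or either untreated array), and the constitutive chaperone Hspa8 was not called (11279.5 and 11618 with CHX and 11897 and 11676 without it). Among 17 p53 targets 4 rose and 2 fell: Pmaip1, the BH3 protein Noxa, stood at 1501 and 1527 with CHX, against 546 and 498 without it (2.9-fold, adjusted p = 0.00015) and the labile ligase Mdm2 at 2002 and 2670.4 with CHX, against 1025 and 1088 without it (log2 change 1.11 ± 0.20, adjusted p = 0.0019), whereas the atypical cyclin Ccng2, also a FoxO target, was lower at 307 and 246 with CHX, against 1426 and 1108 without it (log2 change -2.10 ± 0.21, adjusted p = 9e-05). Cdkn1a was not called (2196 and 1770.3 with CHX and 1012 and 1018 without it, log2 change 0.94).

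Both inhibitors and direct targets of BMP signalling were higher, 9 of 12 genes with none lower (7 or 8 with any 1 of the 4 arrays left out). Id proteins lack a DNA-binding region and hold bHLH factors inactive, and the 4 members rose together. Id2 stood at 6497 and 6438 with CHX, against 616 and 1017 without it (log2 change 2.99 ± 0.32, adjusted p = 0.00011). Id4 stood at 1060.0 and 1031 with CHX, against 96.1 and 162 without it (log2 change 2.83 ± 0.24, adjusted p = 3.7e-05). Id1 stood at 2447 and 4585 with CHX, against 596 and 856 without it (log2 change 2.19 ± 0.28, adjusted p = 0.00033). Id3 stood at 3841 and 7290.3 with CHX, against 627 and 978 without it (log2 change 2.72 ± 0.33, adjusted p = 0.00025). For Id1 and Id3 the 2 CHX arrays lay apart, both of them above both untreated arrays. The inhibitory Smad7 stood at 3038 and 3615 with CHX, against 836 and 832 without it (log2 change 1.96 ± 0.18, adjusted p = 6.2e-05), and Smad6 changed by 0.66, a call that was lost with any 1 of the 4 arrays left out. The secreted antagonist Nog was not called (84.6 and 88.8 with CHX and 83.5 and 79.3 without it). Of 9 Nodal and TGF-beta feedback genes, 5 rose, among them Skil, a labile SMAD corepressor, at 6262 and 6165 with CHX, against 3180.1 and 2499 without it (log2 change 1.13 ± 0.16, adjusted p = 0.00049), and 2 did without untreated replicate 2. The ligand Bmp4 was not called (726 and 857 with CHX and 810.4 and 1121 without it).

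Although Notch1 was not induced, Hes1, a repressor that shuts off its own promoter and turns over quickly, stood at 1071 and 1754 with CHX, against 352 and 299 without it (log2 change 2.00 ± 0.26, adjusted p = 0.00032). Hey1, a related repressor, stood at 240.2 and 215 with CHX, against 94.9 and 96.4 without it (log2 change 1.06 ± 0.21, adjusted p = 0.0034). Other genes of the pathway were lower or were not called. The ligand Dll3 was lower (128 and 130.4 with CHX, against 311 and 341 without it, log2 change -1.18 ± 0.16, adjusted p = 0.00042), and the ligands Dll1 (-0.14), Dll4 (0.17) and Jag1 (-0.09) were not called. The receptor gene Notch1 was lower, at 223 and 233 with CHX, against 395 and 391 without it (log2 change -0.72 ± 0.25, adjusted p = 0.045), a call that was lost with any 1 of the 4 arrays left out. In all, 4 of 22 Notch targets and modulators rose and 4 fell, with a median of 0.11, as for all genes. The count of falls was 1 without untreated replicate 2 and 2 without CHX replicate 1 or 2, and that of rises was 2 without CHX replicate 1.

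A pair of cytochrome P450 genes known as targets of the aryl hydrocarbon receptor were among the 25 largest rises. Cyp1a1 stood at 889 and 928 with CHX, against 24.99 and 37.2 without it (29.2-fold, log2 change 4.07 ± 0.20, adjusted p = 1.5e-06), and no array without CHX exceeded 37.2. Cyp1b1 stood at 1474 and 1442 with CHX, against 105 and 172 without it (log2 change 3.21 ± 0.30, adjusted p = 6.2e-05). The further known targets Tiparp, at 4364 and 5062 with CHX, against 1014 and 773 without it (log2 change 2.38 ± 0.17, adjusted p = 1.6e-05), and Ahrr, at 56.8 and 53.6 with CHX, against 25.4 and 9.06 without it (log2 change 0.95 ± 0.19, adjusted p = 0.0038), were looked up after these values had been seen, as was Nqo1, which was not called (122 and 127 with CHX and 119.7 and 185 without it). Of 11 retinoic acid genes, 4 rose and 1 fell. The receptor gene Rarb, itself a retinoic acid target, stood at 78.9 and 77.5 with CHX, against 15.5 and 9.97 without it (log2 change 1.45 ± 0.16, adjusted p = 0.00016), and the fall was that of Cyp26a1, which clears retinoic acid, at 75.3 and 65.4 with CHX, against 442 and 529 without it (log2 change -2.42 ± 0.23, adjusted p = 6e-05).

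All 8 replication-dependent histone genes that were tested rose, with a median of 1.30 (6 or 7 with any 1 of the 4 arrays left out). Their mRNAs normally end in a stem loop, without the poly(A) tail from which labelling for such arrays usually starts. H1f2 stood at 3143 and 3854 with CHX, against 257 and 249 without it (log2 change 3.66 ± 0.22, adjusted p = 6.4e-06). H2bc18 stood at 403 and 322 with CHX, against 30.4 and 19.6 without it (log2 change 2.96 ± 0.18, adjusted p = 6.4e-06). H2bc22 stood at 2209 and 4647 with CHX, against 641 and 735 without it (log2 change 2.18 ± 0.29, adjusted p = 0.00039). H2aw, not on the list, stood at 1984 and 2324 with CHX, against 211 and 226 without it (log2 change 3.16 ± 0.22, adjusted p = 1.2e-05). Histone genes resemble each other closely, so that probes may read more than 1 of them. Of 16 S phase genes 3 rose and 1 fell. The replication licensing factor Cdt1, a labile protein, stood at 7924 and 7899 with CHX, against 3169 and 3342 without it (log2 change 1.28 ± 0.12, adjusted p = 5.3e-05). Cdc6 stood at 1807 and 1993 with CHX, against 799 and 893 without it (log2 change 1.14 ± 0.17, adjusted p = 0.00065), while Pcna, the replication clamp, was not called (6198 and 7934 with CHX and 7349.9 and 7519 without it). The fall, that of Tyms (-0.48), was lost with any 1 of the 4 arrays left out.

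RNA processing genes formed another group of rises. Of 16 SR proteins and CLK kinases, 10 rose and none fell (7 to 9 with any 1 of the 4 arrays left out), with a median of 0.76. The kinases Clk1 and Clk4, which phosphorylate SR proteins and are known to be made largely as retained-intron transcripts, stood at 3588 and 4487 with CHX, against 1083 and 971 without it (log2 change 1.94 ± 0.20, adjusted p = 9.1e-05), and at 871 and 1105 with CHX, against 155 and 138 without it (log2 change 2.56 ± 0.19, adjusted p = 1.9e-05). Srsf5 stood at 4220.1 and 6451 with CHX, against 1849 and 1899 without it (log2 change 1.47 ± 0.18, adjusted p = 0.00027), whereas Srsf2, at 3539 and 4228 with CHX, against 3781 and 4086 without it, and Srsf9, at 1784 and 1884 with CHX, against 2122 and 2098 without it, were not called. For Srsf11 and Tra2a other probe sets of the gene were lower, with log2 changes down to -0.67 for Srsf11 and -1.28 for Tra2a, so that probe sets of 1 gene disagreed. Among genes with a level of 1000 or more in untreated cells, Wtap, a subunit of the m6A methyltransferase, stood at 4124 and 3603 with CHX, against 1003 and 1167 without it (log2 change 1.81 ± 0.20, adjusted p = 0.00015). The other tested probe set of Wtap was not called (0.31). Rbm5, a splicing regulator, stood at 3570.0 and 3888 with CHX, against 1089.7 and 1132 without it (log2 change 1.72 ± 0.14, adjusted p = 2.9e-05). Of 9 factors of nonsense-mediated decay, Upf2 (1578 and 1532 with CHX, against 614 and 577 without it, log2 change 1.35 ± 0.16, adjusted p = 0.00018) and Casc3 (0.92) rose and the other 7 were not called.

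Noncoding host transcripts of snoRNAs divided sharply: of 15 tested, 8 rose and 6 fell, and 1 was not called. Snhg16 stood at 890.4 and 1285 with CHX, against 102 and 133 without it (log2 change 2.95 ± 0.24, adjusted p = 2.9e-05). Snhg17 stood at 771 and 1548 with CHX, against 176 and 171 without it (log2 change 2.50 ± 0.27, adjusted p = 0.00012). Snhg12 stood at 879 and 1534 with CHX, against 346 and 351 without it (log2 change 1.67 ± 0.25, adjusted p = 0.00071). On the other side Dancr stood at 37.4 and 43.0 with CHX, against 249 and 230.3 without it (log2 change -2.02 ± 0.20, adjusted p = 7.8e-05). Snhg4 stood at 80.6 and 89.0 with CHX, against 367 and 358 without it (log2 change -1.82 ± 0.18, adjusted p = 7.1e-05). Dancr was below all 10 other arrays without CHX, which ranged from 199.6 to 578. For Snhg16, Snhg1 and Gas5 at least 1 other probe set was called in the other direction, down to -0.47 for Snhg16, -1.45 for Snhg1 and -2.28 for Gas5. Chaserr, a long noncoding RNA transcribed next to Chd2 and known in mouse to hold Chd2 in check, stood at 5486 and 4991 with CHX, against 494 and 523 without it (log2 change 3.30 ± 0.15, adjusted p = 1e-06). Chd2, looked up after this value had been seen, was also higher (1202 and 1209 with CHX, against 391.9 and 359 without it, log2 change 1.62 ± 0.16, adjusted p = 7.7e-05). The other tested probe sets of Chaserr (0.44) and Chd2 (0.68) were not called, so both rises rest on a single probe set.

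Further large rises came from several classes. Klf10, a zinc finger factor inducible by TGF-beta, stood at 2634 and 2435 with CHX, against 201 and 204 without it (log2 change 3.49 ± 0.19, adjusted p = 3.4e-06), and its relatives Klf6 (2.27) and Klf7 (2.15) rose as well. Edn1, the vasoactive peptide endothelin, stood at 589 and 497 with CHX, against 60.6 and 65.6 without it (log2 change 2.68 ± 0.21, adjusted p = 2.5e-05). Gata2, a haematopoietic zinc finger factor, stood at 370.1 and 406 with CHX, against 61.5 and 127 without it (log2 change 1.85 ± 0.31, adjusted p = 0.0016). Phlda1, a pleckstrin-like protein, stood at 3469 and 4172 with CHX, against 916 and 1126 without it (log2 change 1.88 ± 0.21, adjusted p = 0.00014). Azin1, an inhibitor of the antizymes that degrade ornithine decarboxylase, stood at 1817 and 2208 with CHX, against 706 and 607 without it (log2 change 1.58 ± 0.17, adjusted p = 0.00014). For each of these genes both CHX arrays lay above both untreated arrays, which the rule that named Klf10 and Phlda1 required. The share of all genes without such overlap was not counted, so this sets none of them apart. Stmn4, of the microtubule-binding stathmin family, changed by 3.15, Filip1l by 3.30, and the unnamed transcripts 5031425E22Rik, 6820431F20Rik and 5430416N02Rik by 3.28, 3.11 and 3.08. Looked up after their values had been seen, Taf1d, a subunit of the RNA polymerase I factor SL1, stood at 4176 and 4821 with CHX, against 486 and 551 without it and Ccnl1, a cyclin that takes part in splicing, at 5089 and 5297 with CHX, against 894 and 736 without it, changes of 3.06 and 2.64. Of 6 other tested probe sets of Taf1d 1 had the same sign and 3 were called lower (down to -1.49), so that the probe sets of this gene disagreed.

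The falls were led by genes of the primitive streak and early mesoderm, the class of transcripts that define these cells. Of 20 such genes, 11 fell and 2 rose, with a median of -0.60 against 0.11 for all genes (7 or 8 fell with any 1 of the 4 arrays left out). Aplnr, the receptor for apelin, had the largest fall of all genes, at 108 and 75.8 with CHX, against 1005 and 1098 without it (11.5-fold lower, log2 change -3.22 ± 0.19, adjusted p = 6e-06). Its ligand Apln was lower too, at 129 and 119.7 with CHX, against 849.7 and 469 without it (log2 change -2.14 ± 0.28, adjusted p = 0.00036), although the alternative ligand Apela, looked up after these values had been seen, was not called (472 and 608 with CHX and 621 and 431 without it). Mixl1, a streak homeobox factor, stood at 137 and 93.8 with CHX, against 1254 and 856 without it (log2 change -2.93 ± 0.25, adjusted p = 3.7e-05). Lhx1, a LIM homeobox factor of the anterior streak, stood at 10.1 and 6.49 with CHX, against 194 and 121 without it (at least 6.3-fold lower, log2 change -2.43 ± 0.24, adjusted p = 7.2e-05). For each of these falls both CHX arrays were below both untreated arrays, as the rule that named them required. Gsc (23.1 and 32.8 with CHX, against 147 and 86.2 without it, log2 change -1.39 ± 0.21, adjusted p = 0.00079) and Evx1 (176 and 110.4 with CHX, against 626 and 434 without it, log2 change -1.73 ± 0.26, adjusted p = 0.00074), homeobox genes of the anterior and posterior streak, and the T-box gene Eomes (204 and 181 with CHX, against 746 and 556 without it, log2 change -1.63 ± 0.19, adjusted p = 0.0002) followed. Fgf8, the streak ligand, stood at 149 and 311 with CHX, against 856 and 616 without it (log2 change -1.64 ± 0.33, adjusted p = 0.0042), and Etv4, known as a target of FGF signalling, stood at 17.3 and 23.4 with CHX, against 93.9 and 67.0 without it (log2 change -1.21 ± 0.23, adjusted p = 0.0028). The list of FGF ligands, receptors and ETV factors was mixed. Of its 13 tested genes 3 rose and 3 fell, with a median of -0.19. Kdr, which encodes the Flk1 marker of these progenitors, was not called (462 and 322 with CHX and 229 and 277 without it, log2 change 0.57). Foxf1 (85.9 and 89.7 with CHX, against 17.8 and 27.7 without it) and Foxc2 (39.1 and 25.8 with CHX, against 6.93 and 2.12 without it) were the 2 rises, at low levels, both lost without CHX replicate 1. The summed ESC markers (9832 and 11515 with CHX, against 8106 and 8561 without it) and neuroectoderm markers (792 and 759 with CHX, against 386 and 284 without it) were higher on the same arrays, and their part in these falls was not tested.

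**Figure D3:**
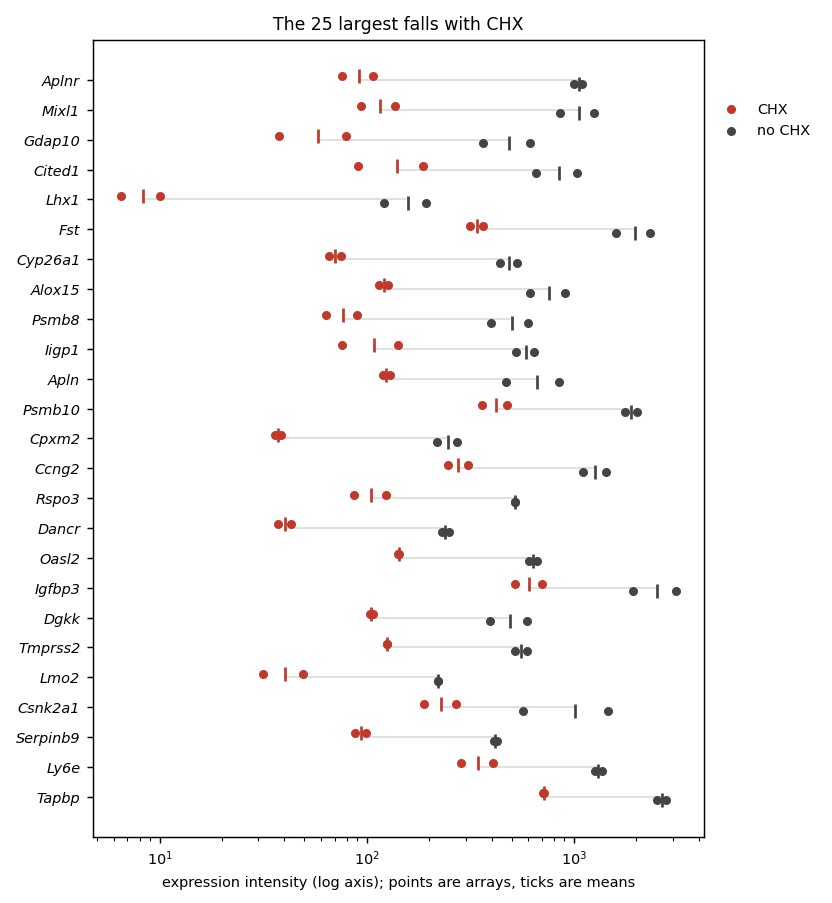
Expression intensity on a log axis for the 25 genes that fell most, from the largest change at the top. Red points are the 2 CHX arrays and dark points the 2 untreated arrays, with a tick at each mean. CHX means run from 8.28 to 714, against 157 to 2650 in untreated cells. Only genes with both CHX arrays below both untreated arrays were eligible, so the absence of overlap follows from the choice.

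Secreted regulators were also among the 25 largest falls. Fst, which encodes the activin antagonist follistatin, stood at 363 and 316 with CHX, against 2337 and 1592 without it (log2 change -2.43 ± 0.27, adjusted p = 0.00016). Rspo3, an enhancer of Wnt signalling, stood at 123 and 86.8 with CHX, against 519.6 and 517 without it (log2 change -2.08 ± 0.18, adjusted p = 4.6e-05), and Igfbp3, which binds insulin-like growth factors, stood at 518 and 700.1 with CHX, against 3106 and 1927 without it (log2 change -1.98 ± 0.25, adjusted p = 0.00027). Cited1, a transcriptional coactivator, stood at 90.9 and 188 with CHX, against 653 and 1032 without it (log2 change -2.43 ± 0.41, adjusted p = 0.0015). Lmo2, a haematopoietic LIM protein, stood at 49.3 and 31.4 with CHX, against 219.9 and 222 without it (log2 change -1.92 ± 0.22, adjusted p = 0.00017). Among the remaining falls were Gdap10 (-2.62), the lipoxygenase Alox15 (-2.40), Cpxm2 (-2.12), the diacylglycerol kinase Dgkk (-1.97), the protease Tmprss2 (-1.95) and the granzyme inhibitor Serpinb9 (-1.90). Another probe set of Cpxm2 was not called (-0.0002). For Csnk2a1, a catalytic subunit of casein kinase II, the 2 untreated arrays differed widely (269 and 189 with CHX, against 1459.7 and 566 without it, log2 change -1.90 ± 0.53, adjusted p = 0.019), and it was the only one of the 25 whose call was lost when an array was left out (adjusted p of 0.061 to 0.15 without CHX replicate 1 or 2 or untreated replicate 1). Of its 4 other tested probe sets 1 had the same sign and none was called (-0.23 to 0.46). Of the 25 falls 4 (Gdap10, Dancr, Csnk2a1 and Ly6e) had both CHX arrays below all 12 arrays without CHX, as had 10.2% of all genes. The 12 include ESC arrays. In the other 10 arrays without CHX the lowest value was 2.59 for Aplnr, 1.48 for Lhx1 and 6.8 for Rspo3, so that such falls could hardly pass. All 25 of the largest rises were above all 12, as were 31.3% of all genes, and the untreated arrays that chose these genes are among the 12.

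Several of the 25 largest falls encode proteins of antigen processing or are inducible by interferon. They were grouped after their values had been seen, and the lists nearest to them, given at the end of the paragraph, were mixed. Psmb8 and Psmb10, which replace constitutive catalytic subunits in the immunoproteasome, stood at 63.5 and 89.8 with CHX, against 398 and 602 without it (log2 change -2.35 ± 0.30, adjusted p = 0.00029) and at 360.4 and 476 with CHX, against 2017 and 1758 without it (log2 change -2.12 ± 0.20, adjusted p = 6.1e-05). Tapbp, the tapasin that loads peptides on MHC class I, stood at 717 and 711 with CHX, against 2794 and 2507 without it (log2 change -1.85 ± 0.21, adjusted p = 0.00015), and B2m, the MHC class I light chain, stood at 752 and 971 with CHX, against 1694 and 1949 without it (log2 change -1.07 ± 0.21, adjusted p = 0.0039). Oasl2, an oligoadenylate synthetase-like protein, stood at 142 and 143 with CHX, against 609.5 and 665 without it (log2 change -1.98 ± 0.19, adjusted p = 6.9e-05). Iigp1, an immunity-related GTPase, stood at 141 and 76.3 with CHX, against 641 and 527 without it (log2 change -2.22 ± 0.25, adjusted p = 0.00017). Ly6e, a GPI-anchored surface protein, stood at 285 and 405 with CHX, against 1359.9 and 1257 without it (log2 change -1.87 ± 0.25, adjusted p = 0.00038). The proteasome activator Psme1 (1031 and 1488 with CHX, against 3967 and 3879 without it, log2 change -1.64 ± 0.20, adjusted p = 0.00022), the peptide transporter genes Tap1 (-1.24) and Tap2 (-1.41), Gbp2 (-1.64) and the RNA sensor Ifih1 (-1.69) were looked up after these values had been seen, and each was lower. Not all interferon genes fell. Of 15 genes of the interferon and SOCS list 4 fell and 2 rose (2 fell without untreated replicate 2 or CHX replicate 1). Socs3, a labile feedback inhibitor, stood at 2029 and 1766 with CHX, against 422 and 585 without it (log2 change 1.88 ± 0.23, adjusted p = 0.00026), and Rsad2 (0.26) and Irf7 (0.12) were not called. Of 38 proteasome subunits on the list, Psmb8 and Psmb10 included, 5 fell and 3 rose, with a median of -0.29, and 10 fell without CHX replicate 2 but 2 when any 1 of the other 3 arrays was left out.

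Genes of the respiratory chain and ATP synthase that are encoded in the nucleus were lower by small amounts. Of 71 such genes 19 fell and 1 rose, with a median of -0.32, and 31 fell after either rescaling. Rescaling raised the falls over all probe sets as well, from 2812 to 4251 after quantile normalization and 4302 with aligned medians. The count turned on single arrays: 1 fell without untreated replicate 1, 2 without CHX replicate 1, 7 without untreated replicate 2, and 28 without CHX replicate 2. For Atp5g2 the arrays had 1817 and 3917 with CHX, against 4628 and 4785 without it, and for Cox7a2 3804 and 5715 with CHX, against 8289 and 7735 without it, so that CHX replicate 1 was the lowest of the 4 arrays for both. Ribosomal protein genes showed the same dependence. Of 43, 1 fell and 1 rose (median -0.11), 5 fell after quantile normalization and 7 after the medians were aligned, and 16 fell without CHX replicate 2. The 2 exceptions in the full fit were Rpl27a (1383 and 1314 with CHX, against 459 and 513 without it, log2 change 1.43 ± 0.21, adjusted p = 0.00067) and Rpl12 (49.7 and 72.3 with CHX, against 229.9 and 256 without it, log2 change -1.65 ± 0.18, adjusted p = 0.00013), and neither level can be set against those of other ribosomal proteins on this array.

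Few genes of general cell function passed the test. The elongation factor Eef1a1 stood at 15515 and 15388 with CHX, against 14048 and 13991 without it, Tuba1a at 11557 and 11702 with CHX, against 10411 and 10752 without it and Ldha at 9314 and 10849.6 with CHX, against 10862 and 10432 without it, and none of these was called. Of 13 tubulins 1 fell (none with any 1 of the 4 arrays left out), of 20 translation factors 2 rose and 2 fell (none fell without CHX replicate 1 or either untreated array), and of 22 sterol and fatty acid synthesis genes 1 rose and 1 fell (6 fell after quantile normalization and 5 with aligned medians). The rise was Insig1, a labile inhibitor of sterol synthesis, at 4989 and 4240.1 with CHX, against 1774 and 1181 without it (log2 change 1.65 ± 0.24, adjusted p = 0.00072), while Hmgcs1 (4534 and 5116 with CHX and 6568 and 4675 without it) and Sqle (2268 and 2862 with CHX and 2879 and 2081 without it) were not called. Of 16 mitosis genes 5 fell and none rose, but none fell without CHX replicate 1 or untreated replicate 2. Pluripotency genes were 6 higher and 2 lower of 21. Sox2, a core factor, stood at 4268 and 4929 with CHX, against 2914 and 3233 without it (log2 change 0.58 ± 0.13, adjusted p = 0.0078, a call lost without untreated replicate 1), and Pou5f1 was not called (863 and 1357 with CHX and 2576 and 1814 without it, log2 change -0.98). The 2 untreated arrays differed in several of these genes, among them Zfp42 (2095 and 2422 with CHX and 781 and 1589 without it) and Klf4 (607 and 527 with CHX and 152 and 321 without it), and the count of rises was 1 without untreated replicate 1 and 8 without untreated replicate 2. Of 14 neuroectoderm genes on the array, 5 were too low to be tested. Of the 9 tested, 4 rose from low levels. They were led by Sox1, an early neural factor, at 184 and 172 with CHX, against 16.6 and 18.7 without it (log2 change 2.25 ± 0.16, adjusted p = 1.2e-05). Genes as low as Sox1 in untreated cells were tested only because another group reached 50, so this count favours rises. Pax6 stood at 128 and 127 with CHX, against 36.9 and 17.2 without it (log2 change 1.58 ± 0.19, adjusted p = 0.00024), but another probe set of Pax6 was called lower (-0.44).

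**Figure D4:**
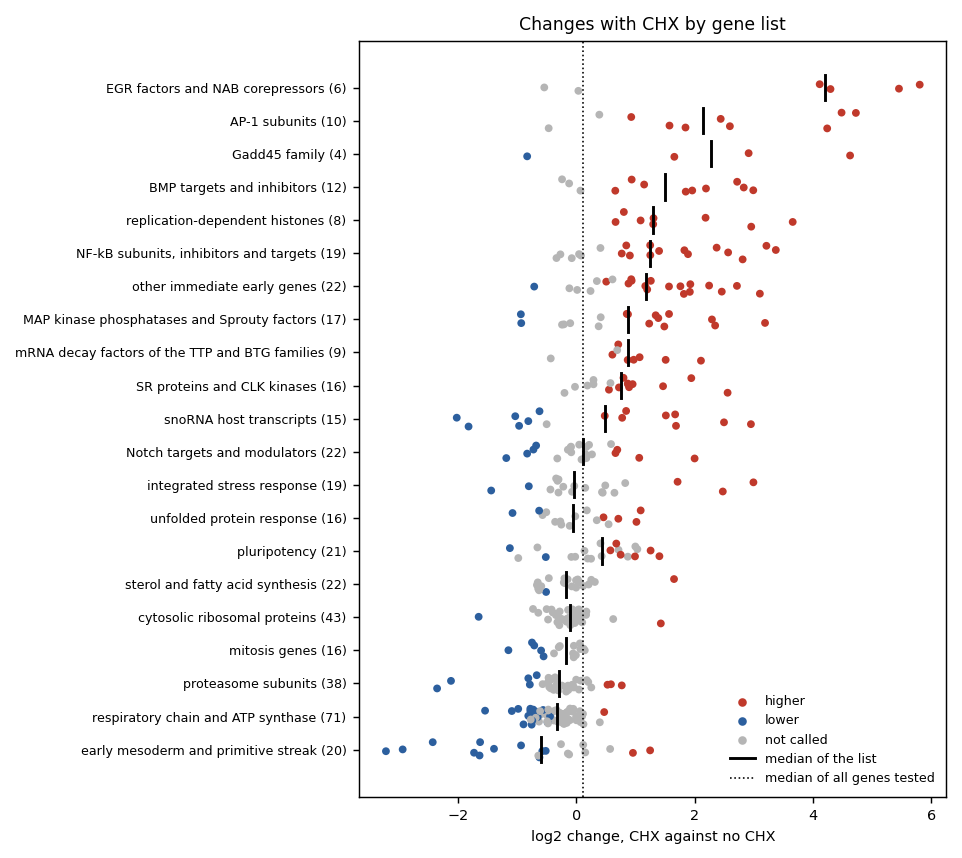
Log2 change with CHX (horizontal axis) of every tested member of 21 gene lists, with the number tested in brackets. Red points rose, blue points fell, grey points were not called, thick bars are list medians and the dotted line is the median of all genes tested at 0.11. Medians run from 4.20 for EGR factors and NAB corepressors to -0.60 for early mesoderm and primitive streak.

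The same treatment in OHT-induced NERT cells, on 4 other arrays, offered a second reading. Both changes came from the same fit with a shared estimate of spread per probe set, so calls in both states are not independent. There 3776 genes (31.0%) were higher and 1357 (11.1%) lower with CHX. Of the genes that rose in uninduced cells 2669 also rose in induced cells, which is 90.1% of the first set and 70.7% of the second, and of those that fell 814 also fell (70.4% of the first set). In opposite directions 3 genes were called. Across the 12188 genes the changes correlated with Pearson's r of 0.90 and Spearman's rho of 0.89, and genes are not independent replicates. All 25 of the largest rises and 23 of the 25 largest falls passed the test there, the exceptions being Apln and Csnk2a1. Egr2 changed by 3.91, Fos by 3.32, Txnip by 4.55, Gadd45g by 4.91, Aplnr by -2.65 and Mixl1 by -3.34 in induced cells.

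A difference between the changes in induced and uninduced cells was tested as an interaction, and 6 of 23971 probe sets (0.025%) passed it, 3 in each direction (1080 at an unadjusted p under 0.05). The count was 3 without CHX replicate 1 or either untreated replicate, and 48 without replicate 2 of the cells with CHX and OHT. For Egr1 the CHX change was 5.80 without OHT and 3.11 with it. With CHX and OHT Egr1 stood at 10434 and 12439, against 1329.9 and 1273 with OHT alone, and the 4 CHX arrays of both states lay between 10434 and 12439. Cxcl10 had 511 and 377 with CHX and OHT, against 189 and 240.3 with OHT alone. In uninduced cells it had 572 and 519 with CHX, against 40.0 and 33.2 without it. Ifit1, an interferon-induced gene, had 40.6 and 52.7 with CHX and OHT, against 450.3 and 647 with OHT alone. In uninduced cells it had 62.4 and 45.5 with CHX, against 89.9 and 108 without it. The activin subunit Inhbb and the Wnt receptor Fzd5 were called higher with CHX in induced cells and were not called in uninduced cells. Inhbb had 1766 and 2108 with CHX and OHT, against 145 and 144 with OHT alone. In uninduced cells it had 51.9 and 42.0 with CHX, against 28.9 and 41.6 without it. Fzd5 had 1327 and 1367 with CHX and OHT, against 241 and 235 with OHT alone. In uninduced cells it had 126 and 134 with CHX, against 167 and 154 without it. For Hes1, whose CHX change was 2.00 without and 3.72 with OHT, the interaction did not pass (adjusted p = 0.34). The remaining probe set of the 6 was a second one of Hes5, another target of Notch, whose main probe set was not called in uninduced cells (0.59).

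**Figure D5:**
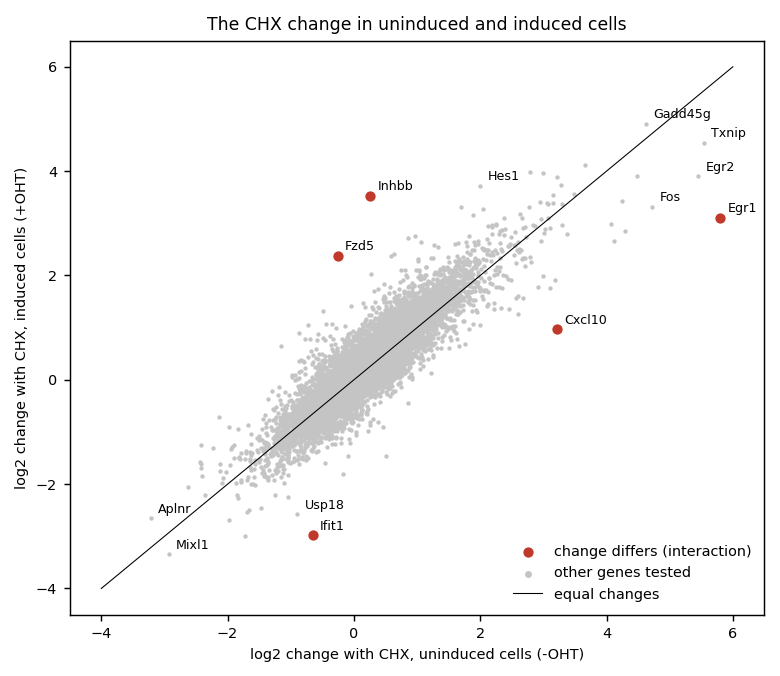
Log2 change with CHX in uninduced cells (horizontal axis) and in OHT-induced cells (vertical axis) for the 12188 genes tested, with the line of equal changes. The 5 genes whose change differed in the interaction test are red: Egr1 and Cxcl10 below the line on the right, Ifit1 below it on the left, and Inhbb and Fzd5 above it.

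Other probe sets of the called genes gave a check within the array. For 1892 called genes 3107 other tested probe sets were found, of which 2422 had the sign of the main probe set, 1286 were called in the same direction and 125 were called in the opposite one. Among the genes named by rule and the called list members, 170 of 225 other probe sets had the same sign. Of the 225, 122 were called in the same direction and 17 in the opposite direction, the latter belonging to 11 genes. These were Snhg1, Snhg16, Gas5, Srsf11, Tra2a, Eif5b, Clock, Dnajb1, Hyou1, Pax6 and 2610005L07Rik. Taf1d, which was looked up later, is not counted among them. Further genes named above had 1 other tested probe set that was not called: Spry2 (0.40), Cdt1 (0.72), Foxf1 (0.046), Notch1 (-0.33) and Gadd45gip1 (-0.17).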

How the data were processed

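Total RNA of whole cultures was hybridized to Affymetrix Mouse Genome 430 2.0 arrays, 16 in the series. The deposited values are model-based expression intensities on a linear scale, which the authors computed with dChip after invariant-set normalization to 1 of the arrays, so that all arrays share the scale of that array. The values were used as deposited. A value of 25 was added before log2, and 23971 of 45037 probe sets were kept, those whose mean reached 50 in a group. limma 3.58.1 in R 4.3.3 was fitted to the 8 NERT mesoderm arrays (4 groups of 2, 4 residual degrees of freedom) with an intensity trend, and p-values were adjusted by Benjamini-Hochberg at 0.05. A gene was represented by its probe set with the highest mean over the 16 arrays among those that name that gene alone (18193 genes, 12188 tested). The number of arrays limits the precision. The study's criteria of 2-fold and a difference over 50 were applied without its present call. Genes were named by rule as the 25 largest called rises and falls, the 8 largest of each at 1000 or more without CHX, the 8 largest ratios lost, the genes with an interaction, and members of 47 gene lists, and the members and lists were chosen with earlier results of these data known. The rises, falls and ratios lost were taken only from genes with both CHX arrays beyond both untreated arrays. The script for the fit was tested on simulated data. Tables and figures were made with Python 3.11.15, numpy 2.4.6, pandas 2.3.3 and matplotlib 3.10.9. Alternatives were pseudocounts of 5 and 100, other filters, scalings, sample sets and a fit without trend, a replicate block, and each array left out. The arrays of EB5 control cells and of ESC served only as levels without CHX.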

Additional observations from a re-analysis of the deposited data

Results flagged for a closer look

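In the test of a difference between the CHX changes with and without OHT, 6 probe sets passed, all from a limma interaction adjusted over 23971 probe sets. The CHX change was smaller in OHT-induced than in uninduced cells for Egr1 (difference -2.70 on the log2 scale, adjusted p = 0.0012) and Cxcl10 (-2.25, adjusted p = 0.039), and it was more negative in OHT-induced cells for Ifit1 (-2.33, adjusted p = 0.039). It was larger in OHT-induced cells for Inhbb (3.27, adjusted p = 0.0012), Fzd5 (2.64, adjusted p = 0.0019) and a second probe set of Hes5 (2.64, adjusted p = 0.024). Each group held 2 arrays, and no group was large enough for a single array to be tested as an outlier.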

How the results depend on the processing

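Of the 309 named or listed genes that were called, none changed direction in 5540 values over all settings, 491 values no longer passed the threshold, and these belonged to 131 genes. The 25 largest rises passed in all 450 values and the 25 largest falls in 447, the exceptions all being Csnk2a1. Leaving out 1 array moved the count of higher probe sets between 2873 and 5834, that of lower ones between 1017 and 3544 and that of interactions between 3 and 48. Lower probe sets numbered 4251 after quantile normalization and 4302 with aligned medians, which shift the median of all probe sets by -0.096 and -0.12. At 1.5-fold instead of 2-fold, 4473 probe sets were higher and 2567 lower. The 6 interactions became 19 with a pseudocount of 100, 3 without a filter and 11 in a fit to 16 arrays. Same-numbered arrays correlated by 0.0074 to 0.51 in their deviations from group means, 4 of the 6 values above 0.1, and the labels tie the numbers to no shared culture or batch, so that they were not taken to pair the arrays. With a replicate block 5614 probe sets were higher, 3556 lower and 19 interactions passed. Depth is set by signal over background here, and ratios of genes with a mean below 25 are bounds.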
